A study of Mus musculus with 24 samples.

Results

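Macrophages that lack both liver X receptors (DKO) were compared after KLA and after vehicle. The 6 libraries were chosen by their labels, a KLA and a vehicle library from each of 3 DKO mice, out of 24 libraries in the series, and were paired by mouse number over all genes. DKO stands for the double knockout of LXRα and LXRβ; which exons are deleted is not stated in the labels. The cells were grown from bone marrow of mice aged 8 to 12 weeks in medium conditioned by L929 cells, and the strain label of both genotypes is C57BL/6J. KLA at 100 ng/ml, or vehicle, was given on day 5 for 17 hours. The other genotype, labelled LXR positive, gave 6 more KLA and vehicle libraries, which serve to test whether a response differed between genotypes. Libraries of the other treatments were not analysed here. Each mouse gave a KLA and a vehicle library of bulk RNA. The tests therefore rest on how the KLA minus vehicle difference varied among mice, taken over both genotypes together.

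KLA (Kdo2-lipid A) is the part of bacterial lipopolysaccharide that Toll-like receptor TLR4 recognizes. TLR4 signals through the adaptor MyD88 to NF-κB, which switches on cytokine and chemokine genes, and through the adaptor TRIF to IRF3, which switches on interferon β and so the interferon-stimulated genes. LXRα and LXRβ are nuclear receptors for oxysterols. They turn on genes that move cholesterol out of the cell and genes that build fatty acids, and are known to dampen inflammatory genes in macrophages when bound by a ligand.

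The DKO KLA libraries held 14084070 to 21644900 reads and the DKO vehicle libraries 20659071 to 27189081; the LXR-positive KLA libraries held 8856391 to 10179626 and the LXR-positive vehicle libraries 10540385 to 17348717. Across genes, DKO libraries of 1 group correlated at r = 0.963 to 0.972, and a KLA with a vehicle library at 0.905 to 0.939. Mitochondrially encoded RNA made up 10.2 ± 2.10% of reads in DKO KLA libraries and 15.7 ± 1.49% in DKO vehicle libraries (SD, n = 3 each). The vehicle library of DKO mouse 3 stood apart from the other DKO vehicle libraries: its summed MHC class II level was 25385 normalized counts, against 4510 and 4917 in mice 1 and 2, and its summed cell cycle level was 11859, against 25505 and 27218. The stromal markers, which collagen-producing cells carry, summed to 2825, 2999 and 405 in DKO KLA libraries of mice 1, 2 and 3 and to 3243, 5264 and 369.7 in DKO vehicle libraries, so they were low in both libraries of mouse 3. Several results that rest on mouse 3 are given with and without it.

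The knocked-out genes were still read in all DKO libraries. Nr1h3 (LXRα) had 751, 608 and 658 normalized counts in DKO KLA libraries and 187, 176 and 179 in DKO vehicle libraries, always in the order of mice 1, 2 and 3; LXR-positive libraries had 870.2, 1267 and 546 after KLA and 114, 176 and 114 after vehicle. Nr1h2 (LXRβ) had 331, 299.6 and 395 in DKO KLA libraries and 312, 275 and 399 in DKO vehicle libraries, while LXR-positive libraries had 821, 449 and 666 after KLA and 523, 569.7 and 654 after vehicle. Since reads from exons that are kept would count in a knockout, these totals do not check the label. Nr1h3 rose with KLA by a log2 fold change of 1.89 ± 0.15, adjusted p = 6.79e-05, its groups did not overlap, and the change of Nr1h2 was 0.06 ± 0.17, adjusted p = 0.817. Defining macrophage markers were read in every DKO library. Csf1r, the receptor for the macrophage growth factor, had 20651, 21662 and 23335 in DKO KLA and 20155, 24499.6 and 30261 in DKO vehicle libraries.

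KLA changed a large share of the transcriptome in DKO macrophages. Of 15957 genes tested, 4249 (26.6%) were called changed at an adjusted p under 0.05 by limma: 2331 higher (14.6%) and 1918 lower (12.0%), with a median log2 fold change over all genes of -0.00. A change of more than 2-fold was seen for 962 of the higher and 1007 of the lower genes, more than 8-fold for 138 and 98, and more than 32-fold for 29 and 10. In bulk RNA, fewer cells of a type and less RNA per cell cannot be told apart. With 3 mice, the count depends on each of them: it was 2172 or 2181 without the KLA or the vehicle library of mouse 1, 2450 or 2463 without those of mouse 2, and 2641 or 2639 without those of mouse 3.

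**Figure D1:**
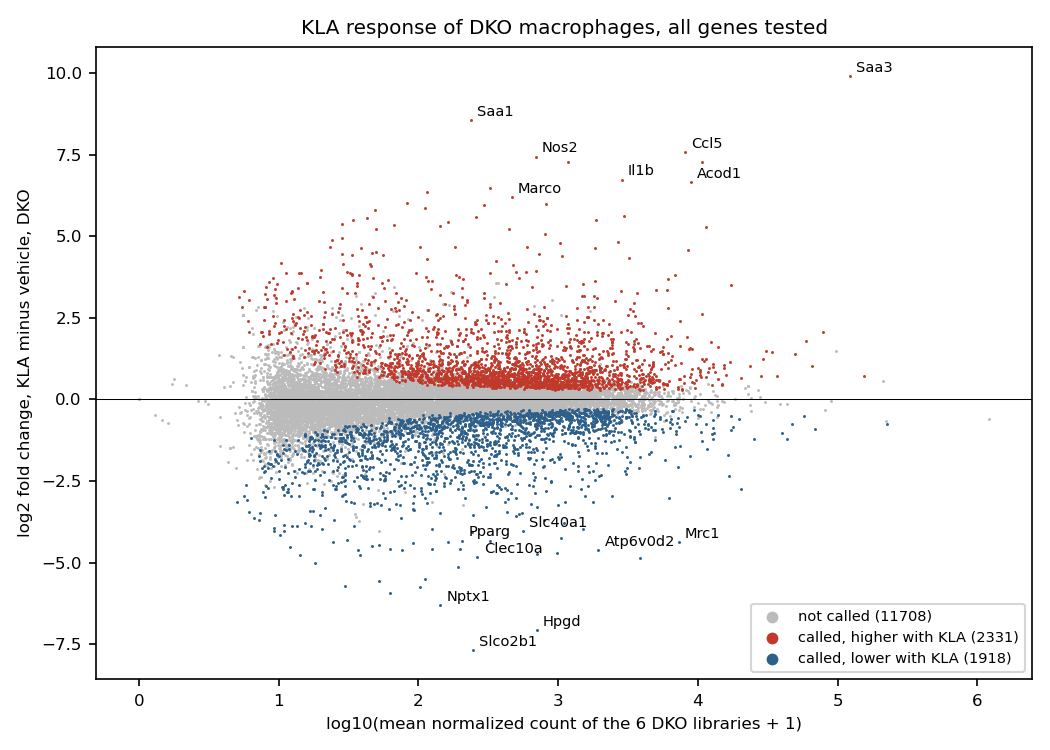
Each point is 1 of 15957 genes; the x axis gives log10 of the mean normalized count of the 6 DKO libraries plus 1, and the y axis the log2 fold change, KLA minus vehicle, in DKO. Called genes are coloured, 2331 higher (red) and 1918 lower (blue); Saa3 lies highest at 9.93 and Slco2b1 lowest at -7.69.

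The largest rises were of acute-phase, chemokine and effector genes. Saa3 encodes a serum amyloid A protein made by activated macrophages (ENSMUSG00000040026, GRCm38 chromosome 7, 46711998 to 46715700, minus strand). It had 194631, 200404 and 337595 normalized counts in DKO KLA libraries, against 71.6, 559 and 351 in DKO vehicle libraries. Saa3 took 1.54%, 1.54% and 2.55% of all reads after KLA and 0.000577%, 0.00456% and 0.00287% after vehicle. The groups are far apart, the vehicle library of mouse 1 being the lowest, and the log2 fold change was 9.93 ± 0.61, adjusted p = 1.97e-05. Its neighbour Saa1 had 303, 413 and 696 in DKO KLA libraries and 0, 0.593 and 0 in DKO vehicle libraries. The vehicle values come from 1 read in all, against 2010 reads after KLA, a ratio of 2912 after scaling for depth, with a counting interval of 522 to 115068 (95%). Reads of serum amyloid genes may be shared among close copies, so the split between them is uncertain.

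Of the 12 genes with the largest rises, 9 have a promoter in the RefSeq table of GRCm38.p6, and 1 of these, Saa3, held a searched motif in the 250 bases before its start. The search covered both strands for the ISRE core (GAAA, any 2 bases, GAAA), which interferon regulatory factors bind, and for the κB consensus of NF-κB. The Saa3 promoter (chr7:46715677-46715926, minus strand) is shown since Saa3 rose most, with the ISRE core, 125 to 116 bases before the start, in capitals.
Saa3: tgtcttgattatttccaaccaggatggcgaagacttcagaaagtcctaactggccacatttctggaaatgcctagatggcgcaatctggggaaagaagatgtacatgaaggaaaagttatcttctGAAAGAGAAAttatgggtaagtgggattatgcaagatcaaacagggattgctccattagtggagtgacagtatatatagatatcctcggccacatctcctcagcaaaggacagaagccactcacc
Of all 32851 promoters of this length, 2.98% held the ISRE core and 3.9% the κB consensus. Among promoters of genes called higher the shares were 4.99% and 5.64%, among those called lower 2.09% and 4.58%, and among genes not called 2.53% and 4.04%. A match of letters is a description and does not show that a factor binds there.

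The other 10 genes of this rank span several roles. Ccl5, a chemokine for T cells and monocytes, had 12598, 18516 and 16905 in DKO KLA libraries and 59.0, 84.9 and 109.6 in DKO vehicle libraries (7.57 ± 0.26, adjusted p = 3.04e-06; values in brackets are the log2 fold change ± SE). Nos2, which makes nitric oxide from arginine, had 787, 2395 and 941 after KLA and 3.39, 10.1 and 5.86 after vehicle (7.45 ± 0.24, adjusted p = 3.04e-06). In both, every KLA library exceeded every vehicle library, and mouse 2 had the highest Nos2 under either condition. Cfb, complement factor B of the alternative pathway, had 22617, 20683 and 20823 after KLA and 77.4, 121 and 273 after vehicle (7.27 ± 0.36, adjusted p = 8.26e-06). Acod1, which makes itaconate from a TCA cycle intermediate, had 18721, 19625 and 14479 after KLA and 94.8, 196 and 273 after vehicle (6.66 ± 0.38, adjusted p = 1.49e-05). The vehicle level of both was lowest in mouse 1 and highest in mouse 3. Interleukin genes Il1b and Il1a rose by log2 fold changes of 6.74 and 6.47, the scavenger receptor Marco by 6.21, the kinase gene Wnk2 by 6.37 and Rasgrp1, an activator of Ras, by 5.99. Ptges, the inducible prostaglandin E synthase, is the remaining 1 and is described with its pathway.

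Ptges is given with Ptgs2 and Hpgd, also of prostaglandin metabolism; they are not a list of their own. Ptges had 2569, 2131 and 2357 in DKO KLA libraries and 7.74, 23.1 and 15.3 in DKO vehicle libraries (7.28 ± 0.32, adjusted p = 5.80e-06). Ptgs2, the inducible cyclooxygenase that feeds it, had 767, 1229.8 and 590.1 after KLA and 29.0, 27.3 and 11.7 after vehicle (5.22 ± 0.22, adjusted p = 4.76e-06). Both synthetic genes were low in every vehicle library and their groups did not overlap. Hpgd, which inactivates prostaglandins (ENSMUSG00000031613, GRCm38 chromosome 8, 56294585 to 56321043, plus strand), had 9.25, 6.47 and 13.5 after KLA and 1467, 1315 and 1388 after vehicle (-7.07 ± 0.31, adjusted p = 5.80e-06). Slco2b1, an organic anion transporter of the plasma membrane, had 3.56, 0 and 1.84 after KLA and 544, 474 and 442 after vehicle (-7.69 ± 0.42, adjusted p = 1.34e-05). Among genes named by rank these are the largest falls, and the KLA values of Slco2b1 are close to no reads.

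**Figure D2:**
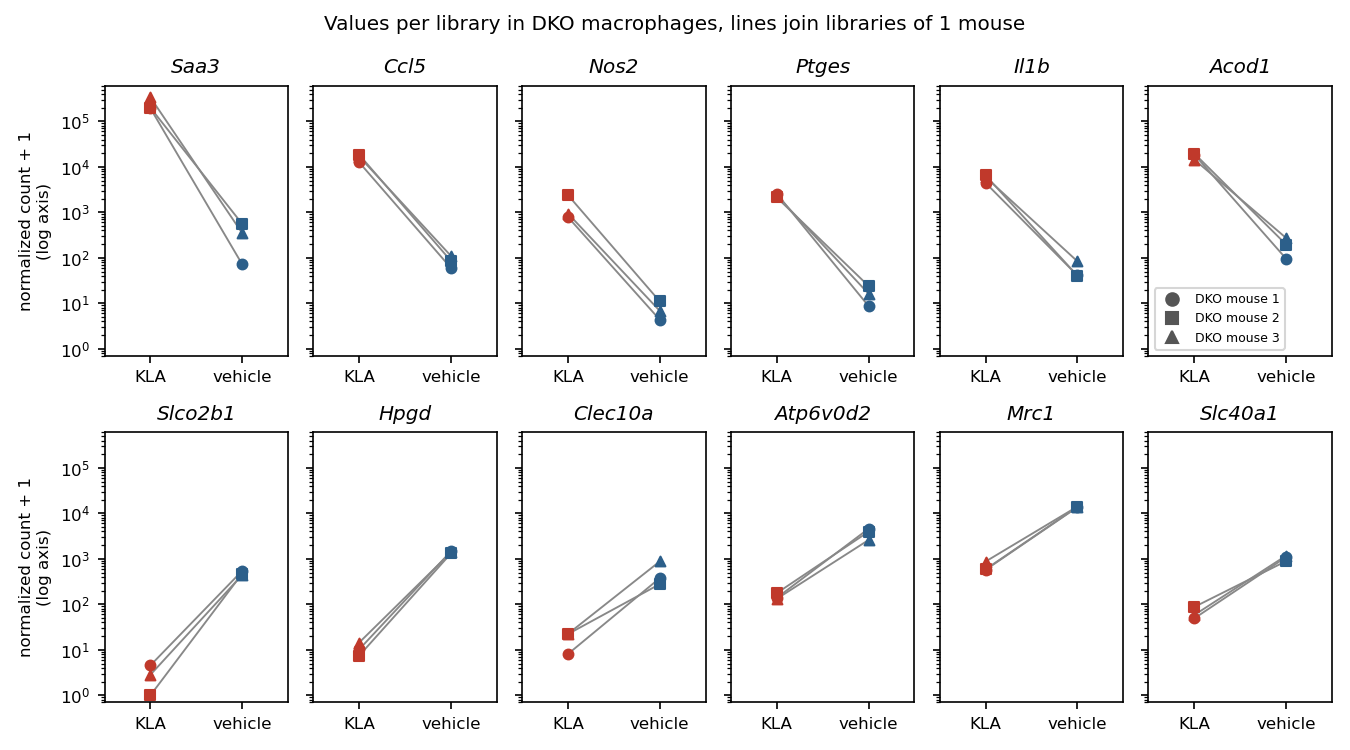
Normalized counts plus 1 (log axis) of 6 genes that rose (top) and 6 that fell (bottom) in DKO macrophages; each point is 1 library, KLA left and vehicle right, and a line joins the libraries of 1 mouse. In all 12 genes the KLA and vehicle groups do not overlap, and all 3 lines slope the same way. All but Slc40a1 were named by rank, which required the same sign in 3 mice and a large change. Their common slope was thus fixed by that choice, and it made separate groups likely.

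Among the other large falls were surface receptors and secreted factors. Clec10a, a galactose-type lectin of macrophages and dendritic cells, had 7.11, 21.3 and 21.4 in DKO KLA libraries and 376, 278 and 877 in DKO vehicle libraries (-4.83 ± 0.35, adjusted p = 4.12e-05). Mrc1, the mannose receptor, had 574, 589 and 873 after KLA and 13694, 13885 and 14111 after vehicle (-4.38 ± 0.27, adjusted p = 1.91e-05). Mrc1 was even across the vehicle libraries, while Clec10a was highest in the vehicle library of mouse 3. Cd28, best known as a costimulatory receptor of T cells, had 61.2, 21.3 and 90.6 after KLA and 1058, 1412 and 1587 after vehicle (-4.73 ± 0.39, adjusted p = 8.05e-05). Lymphocyte markers stayed low in these libraries: 6 of 13 were tested, the sum of all 13 was 163 to 189.9 after KLA and 276 to 361 after vehicle, and 1 of them, Cd4, fell (-1.75); their part in the Cd28 result was not tested. Bmp2, a secreted bone morphogenetic protein, fell by 4.60 on the log2 scale, and the membrane protein gene Emp1 fell by 4.69. Nptx1, which encodes a pentraxin best known from neurons, had 2.13, 2.77 and 1.22 after KLA and 428, 332 and 89.3 after vehicle (log2 fold change -6.30). Mamdc2, Samd4 and Rasgrp3 had log2 fold changes of -5.51, -5.13 and -4.59. Rasgrp1 and Rasgrp3, both activators of Ras family proteins, thus went in opposite directions.

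The gene groups that follow come from 37 lists of pathways and cell type markers, and their rises, falls and medians are on the log2 scale. Rises and falls are limma calls, to be read against the 14.6% higher and 12.0% lower over all genes. Where groups of a called gene are said here or above not to overlap, the call already made that likely. Such separation describes the values and adds no support of its own, and its share over all genes was not counted. The plot of list medians by mouse shows 21 of them, from inflammatory effectors at a median log2 fold change of 4.35 to neutrophil markers at -1.27. Mouse 3 had the smallest rise of interferon-inducible GTPases and the smallest fall of cell cycle genes among the 3 mice.

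**Figure D3:**
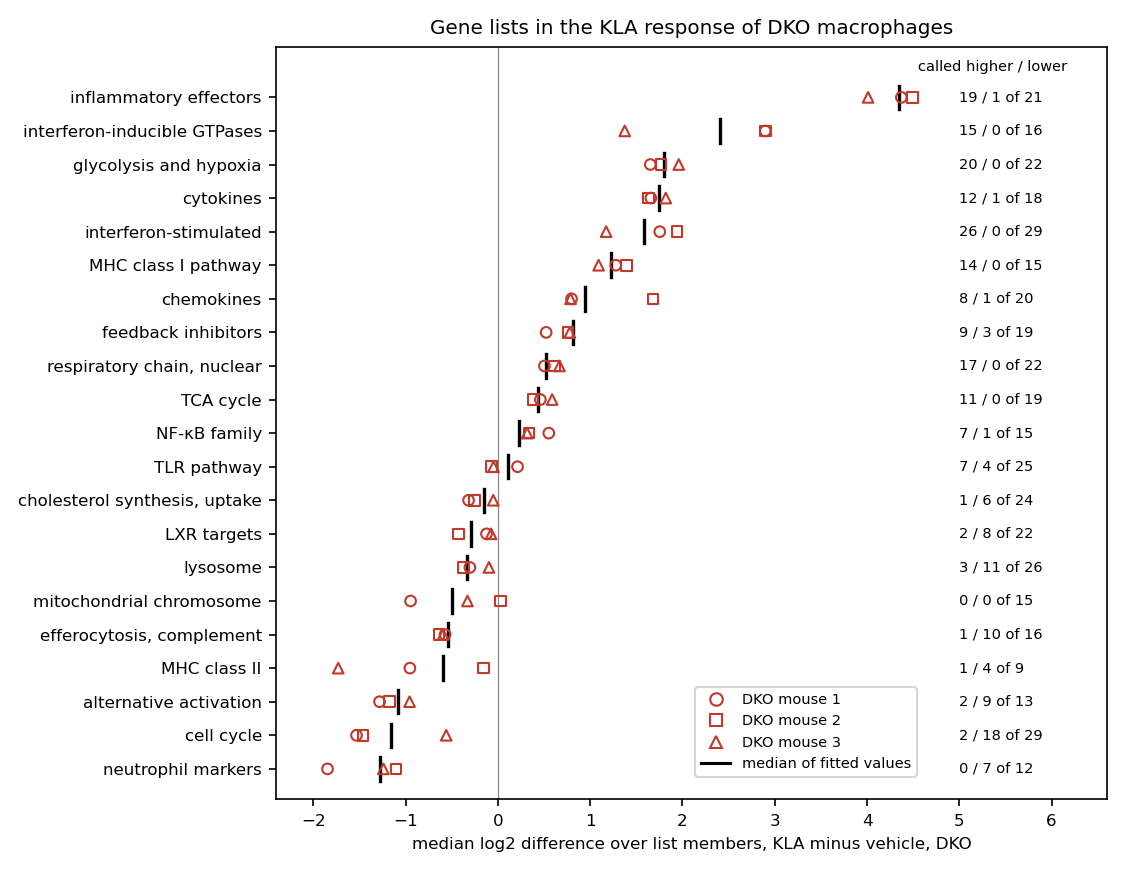
Median log2 difference over the tested members of 21 gene lists, KLA minus vehicle, in each DKO mouse (symbols), with the median of the fitted values as a bar; figures at the right give members called higher, called lower and tested. Lists range from inflammatory effectors at 4.35 to neutrophil markers at -1.27.

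Inflammatory effectors had the highest median of the 37 lists, 4.35, with 19 of 21 tested rising and 1 falling. The antimicrobial iron-siderophore binder Lcn2 had 5756, 5478 and 7054 in DKO KLA libraries and 224, 366 and 316 in DKO vehicle libraries (4.35 ± 0.15, adjusted p = 3.41e-06). Sod2, the mitochondrial superoxide dismutase, had 11096, 10399 and 12319 after KLA and 689, 871 and 1097 after vehicle (3.69 ± 0.14, adjusted p = 3.59e-06). Cd38, which breaks down NAD, had 5519, 6621 and 5365 after KLA and 93.8, 195 and 89.7 after vehicle (5.61 ± 0.21, adjusted p = 3.46e-06). In all of these the KLA and vehicle groups were far apart, and the KLA libraries of the 3 mice were close to each other. The formyl peptide receptors Fpr1 and Fpr2 rose by 3.94 and 4.46, complement C3 by 3.51 and the ferroxidase Cp by 3.82. The protease inhibitor Slpi also rose (2.85), but it lost its call when any 1 DKO library was left out. Plaur, the urokinase receptor, was the member that fell (-1.31 ± 0.23, adjusted p = 0.00364), and the histamine-forming Hdc was not called (0.34 ± 0.25, adjusted p = 0.371).

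Several members of the effector list besides Nos2 handle arginine or serve nitric oxide synthesis, and Arg1, of the alternative activation list, is given with them; they are not a list of their own. Slc7a2, a transporter of cationic amino acids, had 2138, 2648 and 1148 in DKO KLA libraries and 63.9, 93.8 and 47.8 in DKO vehicle libraries (4.80 ± 0.18, adjusted p = 3.59e-06). Ass1, which rebuilds arginine from citrulline, had 781, 1215 and 678 after KLA and 36.8, 69.4 and 44.2 after vehicle (4.13 ± 0.29, adjusted p = 3.69e-05). Arg1, the cytosolic arginase that is often used as a marker of alternative activation, had 230.4, 1129 and 369 after KLA and 8.71, 11.3 and 2.25 after vehicle (5.98 ± 0.43, adjusted p = 4.12e-05). Arg1 rose in every mouse and was highest in the KLA library of mouse 2, as Nos2 was. Arg2, the mitochondrial arginase, rose by 2.92, and Gch1, which makes the cofactor of nitric oxide synthase, by 1.11. Of the exon bases of Arg2, 28.1% lie opposite another gene, and since it is not known whether counting used strand, its reads cannot be told apart from those of that gene.

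Of 18 cytokine genes tested, 12 rose and 1 fell (median 1.75). Tnf, tumour necrosis factor, had 1032, 584 and 478 in DKO KLA libraries and 120.0, 159.6 and 111 in DKO vehicle libraries (2.35 ± 0.22, adjusted p = 1.65e-04). Il1b had 4451, 6495 and 5977 after KLA and 40.1, 39.8 and 83.4 after vehicle (6.74 ± 0.25, adjusted p = 3.46e-06). Il6 had 40.5, 53.6 and 41.6 after KLA and 0.967, 0 and 0.902 after vehicle (4.89 ± 0.54, adjusted p = 3.66e-04). All 3 were separated between groups, and Il6 was near 0 without KLA. Il1rn, the antagonist of the interleukin 1 receptor, rose by 3.18, and the 2 chains of interleukin 12, Il12a and Il12b, by 4.42 and 4.09. Ebi3, a chain of interleukin 27, rose by 1.80 (23.4% of its exon bases lie opposite another gene). Il10, an anti-inflammatory cytokine, was the one that fell: it had 23.5, 16.6 and 21.4 in DKO KLA libraries and 64.8, 49.3 and 99.2 in DKO vehicle libraries (-1.70 ± 0.36, adjusted p = 0.00982). Without the KLA or the vehicle library of mouse 3, Il10 lost its call (adjusted p up to 0.0751). Osm, Csf1, Il15, Lif and Tgfb1 were not called, with log2 fold changes of -0.65, -0.28, 0.04, 1.03 and -0.26.

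Of 20 chemokine genes tested, 8 rose and 1 fell (median 0.95). Cxcl2, which attracts neutrophils, had 366, 856 and 494 in DKO KLA libraries and 74.0, 84.3 and 64.5 in DKO vehicle libraries (2.85 ± 0.30, adjusted p = 2.74e-04). Cxcl3, of the same family, had 86.1, 779 and 99.8 after KLA and 2.90, 4.15 and 3.16 after vehicle (5.44 ± 0.77, adjusted p = 0.00138). Cxcl10, an interferon-induced chemokine, had 1099, 1316 and 648 after KLA and 84.2, 107 and 320.1 after vehicle (2.77 ± 0.49, adjusted p = 0.00400). Cxcl3 was highest in the KLA library of mouse 2, and the Cxcl10 vehicle value was highest in mouse 3. Ccl22 rose by 2.77 and Cxcl1 by 3.81. Ccl6 fell: it had 1048, 1994 and 1227 after KLA and 3137, 5388 and 4419.7 after vehicle (-1.62 ± 0.13, adjusted p = 6.77e-05). At 17 hours the monocyte chemokine Ccl2 had 183, 279 and 127 after KLA and 269, 383 and 97.4 after vehicle (-0.21 ± 0.29, adjusted p = 0.633), with groups that overlap, and Ccl3 and Ccl4 were not called either (0.58 and 0.20). Of the 8 chemokine receptors tested, 2 rose and 3 fell (median -0.15, and 0.18 without either library of mouse 1). Ccr2, the receptor for Ccl2, had 206, 313 and 265 after KLA and 1317, 1466 and 1776 after vehicle (-2.55 ± 0.25, adjusted p = 2.03e-04), and Cxcr4 had 244, 554 and 362 after KLA and 2348, 3284 and 1926 after vehicle (-2.74 ± 0.17, adjusted p = 1.86e-05). The atypical receptor Ccrl2 rose by 2.15, as did Ccr7 (2.18), which lost its call without either library of mouse 1 or without the KLA library of mouse 2.

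Sensors and adaptors upstream of these genes moved in both directions. Of 25 genes of the Toll-like receptor pathway, 7 rose and 4 fell (median 0.11). The counts shifted with the processing: 4 rose and 3 fell without either library of mouse 1, 5 rose and 6 fell after quantile normalization (median 0.02), and 7 rose and 7 fell in a fit of the 6 DKO libraries only. Without either library of mouse 3 the median was 0.20. Tlr4 itself had 1582, 1361 and 1421 in DKO KLA libraries and 2156, 1918 and 1637 in DKO vehicle libraries (-0.38 ± 0.15, adjusted p = 0.0923). Its co-receptor Cd14 had 3521, 4447 and 3812 after KLA and 1673, 2368 and 1670.4 after vehicle (1.06 ± 0.11, adjusted p = 3.14e-04). Cd14 rose in every mouse, whereas Tlr4 was slightly lower after KLA in all 3 without passing the test. Tlr1 and Tlr2, which together sense bacterial lipopeptides, rose by 1.30 and 1.16, and the adaptor Myd88 by 0.81. The nucleic acid sensors Tlr7, Tlr9 and Tlr13 fell by 0.75, 1.12 and 1.30, while Tlr3 was not called (0.19). Ticam1, which encodes TRIF, and Irf3 were not called (0.36 and -0.06).

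Of 15 NF-κB family genes, 7 rose and 1 fell (median 0.23, and 0.13 after quantile normalization). Nfkbia, which encodes the inhibitor IκBα, had 2456, 1963 and 2489 in DKO KLA libraries and 410.2, 472 and 692 in DKO vehicle libraries (2.16 ± 0.19, adjusted p = 1.16e-04). Nfkb2 had 2484, 2298 and 2382 after KLA and 932, 954 and 1162 after vehicle (1.24 ± 0.11, adjusted p = 1.40e-04). Both were higher in every KLA library than in any vehicle library. Nfkbie and Nfkbib, inhibitors too, rose by 1.28 and 1.10, and the kinase Ikbke by 1.00. Relb and Bcl3 rose too (0.72 and 0.94), but both lost the call without either library of mouse 2, and Relb also without either library of mouse 1. Rel fell (-0.55 ± 0.10, adjusted p = 0.00409), and Rela and Nfkb1 were not called (0.13 and 0.12). In promoters, 5 of the 11 family genes in the RefSeq table held a κB consensus, Nfkbia among them. Its promoter (GRCm38.p6, chr12:55492648-55492897, minus strand) was chosen for display after its values were seen, and capitals mark the consensus 29 to 20 bases before the start.
Nfkbia: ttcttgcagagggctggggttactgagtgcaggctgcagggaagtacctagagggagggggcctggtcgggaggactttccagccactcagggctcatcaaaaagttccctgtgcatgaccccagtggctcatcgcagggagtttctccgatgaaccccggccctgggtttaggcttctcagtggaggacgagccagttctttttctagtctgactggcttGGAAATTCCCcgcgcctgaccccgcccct

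Of 19 feedback inhibitors of the pathway tested, 9 rose and 3 fell (median 0.82; 1 fell when any DKO library was left out or low values were not filtered). Socs3, which blocks cytokine receptor signalling, had 3789.8, 2951 and 3766 in DKO KLA libraries and 99.2, 130.0 and 204 in DKO vehicle libraries (4.65 ± 0.18, adjusted p = 3.59e-06). Tnfaip3, the ubiquitin-editing enzyme A20, had 2986, 2001 and 2169 after KLA and 550.0, 649.8 and 748 after vehicle (1.86 ± 0.18, adjusted p = 1.69e-04). Irak3, an inhibitory kinase of the MyD88 branch, had 3641, 3008 and 4246 after KLA and 868, 745 and 1189 after vehicle (1.97 ± 0.10, adjusted p = 8.71e-06). The groups of all 3 were apart by a wide margin. Tnip3 rose by 2.05, Tnip1 by 1.35, Socs1 by 3.82 and Cd274, the checkpoint ligand PD-L1, by 2.72. Cd200r1, an inhibitory receptor, fell by 1.09. Atf3 and Dusp1 were not called (-0.07 and 0.66).

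Interferon-stimulated genes rose almost as a whole list in DKO macrophages: 26 of 29 tested rose and none fell (median 1.58). None fell at an unadjusted p under 0.05 either, nor by edgeR or DESeq2. Isg15, a ubiquitin-like antiviral protein, had 521, 558 and 496 in DKO KLA libraries and 51.3, 37.4 and 113 in DKO vehicle libraries (3.10 ± 0.29, adjusted p = 1.45e-04). Irf7, the factor that amplifies interferon production, had 6068, 5457 and 5458 after KLA and 1273, 491 and 886 after vehicle (2.78 ± 0.24, adjusted p = 1.02e-04). Zbp1, a nucleic acid sensor, had 4878, 3871 and 4676 after KLA and 473, 388 and 911 after vehicle (3.01 ± 0.26, adjusted p = 1.05e-04). In none of the 3 did the groups overlap. Oasl1 rose by 2.92 and Bst2, which tethers viruses, by 2.43. Oas2, Irf9 and Cmpk2 were positive but not called (0.56, 0.34 and 1.05). The interferon β gene itself, Ifnb1, was too low to be tested. It had 0, 0 and 0.612 in DKO KLA libraries and 0, 0 and 1.35 in DKO vehicle libraries. By mouse, the list median was 1.75, 1.94 and 1.17 in mice 1, 2 and 3. The count was 20 without either library of mouse 1, and 26 (median 1.78) without either of mouse 3.

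The interferon-inducible GTPases, which attack the compartments of intracellular microbes, rose in 15 of 16 tested (median 2.40). Gbp6 had 5589, 5448 and 4418 in DKO KLA libraries and 144, 145 and 284 in DKO vehicle libraries (4.81 ± 0.32, adjusted p = 2.85e-05). Gbp5, which promotes inflammasome assembly, had 4539, 2727 and 2843 after KLA and 185, 158 and 612 after vehicle (3.64 ± 0.45, adjusted p = 6.68e-04). Igtp had 2227, 1938 and 1731 after KLA and 347, 345 and 638 after vehicle (2.20 ± 0.28, adjusted p = 8.50e-04). The vehicle library of mouse 3 was the highest of the vehicle libraries in all of these. The summed level of the list was 60173, 48683 and 44818 after KLA and 11418, 10087 and 19033 after vehicle, and its median was 2.90 in mice 1 and 2 and 1.37 in mouse 3. Without either library of mouse 3, 15 rose (median 2.90). Reads of these gene families may be shared among close copies, so single members are less certain than the list. Of the 10 members in the RefSeq table, 9 held an ISRE core in the 250 bases before the start, and of 21 interferon-stimulated genes there 9 did. The Isg15 (GRCm38.p6, chr4:156200819-156201068, minus strand) and Gbp5 (chr3:142496684-142496933, plus strand) promoters, chosen for display after their values were seen, show overlapping and separate sites. Capitals mark 3 overlapping ISRE cores of Isg15, 78 to 57 bases before the start, and in Gbp5 an ISRE core on the minus strand, 165 to 156 bases before, and a κB consensus, 77 to 68 bases before.
Isg15: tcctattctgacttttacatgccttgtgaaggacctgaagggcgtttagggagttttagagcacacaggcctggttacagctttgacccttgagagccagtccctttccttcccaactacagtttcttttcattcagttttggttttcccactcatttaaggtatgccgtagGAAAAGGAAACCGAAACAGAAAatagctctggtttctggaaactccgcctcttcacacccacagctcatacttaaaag
Gbp5: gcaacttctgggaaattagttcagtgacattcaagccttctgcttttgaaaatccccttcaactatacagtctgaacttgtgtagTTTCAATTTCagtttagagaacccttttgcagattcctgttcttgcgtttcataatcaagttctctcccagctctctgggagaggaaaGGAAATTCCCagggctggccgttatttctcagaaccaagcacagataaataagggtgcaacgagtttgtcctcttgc

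The MHC class I pathway, which displays peptides from within the cell, rose in 14 of 15 tested (median 1.23). The peptide transporter gene Tap1 had 3815, 3439 and 2867 in DKO KLA libraries and 811, 688 and 964 in DKO vehicle libraries (2.04 ± 0.18, adjusted p = 1.24e-04). Psme2, an activator subunit of the proteasome, had 3464, 2419 and 3278 after KLA and 855, 522 and 859 after vehicle (2.05 ± 0.09, adjusted p = 6.49e-06). Both were apart between groups in all mice. The immunoproteasome subunits Psmb8, Psmb9 and Psmb10 rose by 1.76, 1.44 and 1.78, and B2m, the light chain, by 0.71. The heavy chain H2-K1 rose by 0.98, and H2-D1 was not called (0.37); reads of class I heavy chains may be shared among copies.

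Of 9 MHC class II genes tested, which display peptides from outside the cell, 4 fell and 1 rose (median -0.59, and -0.95 without either library of mouse 2). Without either library of mouse 3, 3 fell and none rose (median -0.56). The transactivator Ciita had 69.7, 77.7 and 79.0 in DKO KLA libraries and 265, 302 and 789.9 in DKO vehicle libraries (-2.39 ± 0.31, adjusted p = 8.78e-04). H2-Aa had 132, 164 and 341 after KLA and 347, 509 and 2516 after vehicle (-1.97 ± 0.27, adjusted p = 0.00120). H2-Eb1 had 102, 84.1 and 161 after KLA and 354, 287 and 1614 after vehicle (-2.29 ± 0.30, adjusted p = 8.49e-04). The vehicle library of mouse 3 was the highest by far in each, and in every mouse the KLA value was the lower. H2-Ab1, whose log2 fold change was -0.59 ± 0.32, adjusted p = 0.214, had 535, 657 and 1041 after KLA and 601, 601 and 3455 after vehicle. The invariant chain gene Cd74 fell (-1.67 ± 0.33, adjusted p = 0.00672), but without a mouse 3 library its adjusted p was up to 0.0520. Without either library of mouse 3, the log2 fold changes were -1.93 for Ciita, -1.51 for H2-Aa and -1.77 for H2-Eb1. H2-Ob was the gene that rose (1.83 ± 0.54, adjusted p = 0.0374), and it lost its call without any 1 DKO library.

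**Figure D4:**
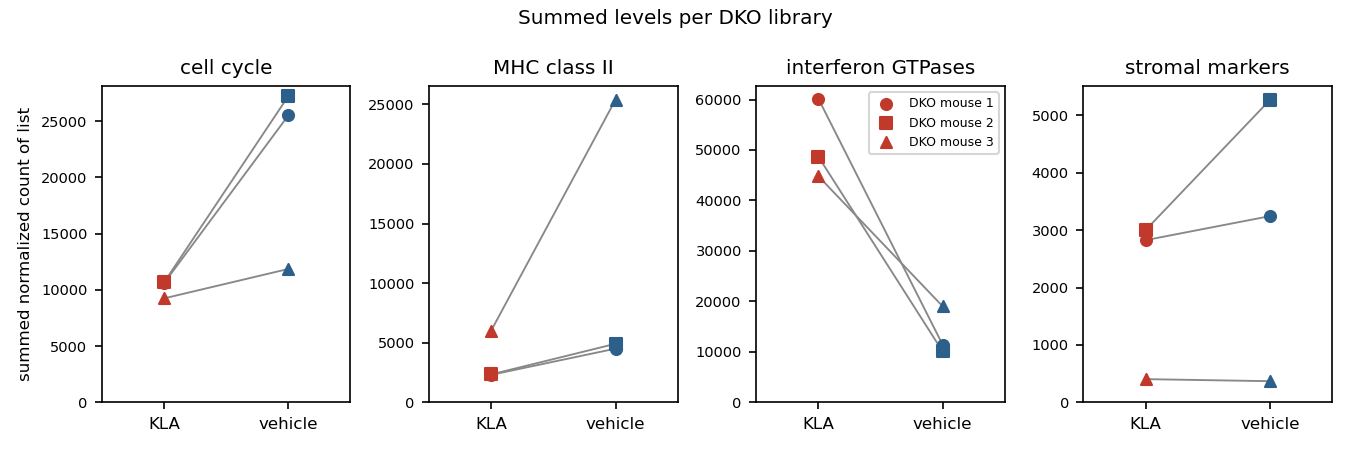
Summed normalized counts of 4 gene lists in each DKO library, KLA left and vehicle right, with a line joining the libraries of 1 mouse. The vehicle library of mouse 3 is high for MHC class II (25385) and low for cell cycle genes (11859), and both its libraries are low for stromal markers (405 and 369.7).

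Of 12 costimulation and adhesion genes, 7 rose and 2 fell (median 0.97). Cd40, which receives help signals from T cells, had 664, 557 and 649 in DKO KLA libraries and 102, 137 and 219 in DKO vehicle libraries (2.09 ± 0.21, adjusted p = 2.05e-04). Itgal, the alpha chain of LFA-1, had 5789, 4097 and 5402 after KLA and 432, 337 and 844 after vehicle (3.34 ± 0.25, adjusted p = 4.57e-05). Itgax, which encodes CD11c, had 59.7, 178 and 69.8 after KLA and 600.3, 1002 and 289 after vehicle (-2.61 ± 0.29, adjusted p = 3.79e-04). Cd40 and Itgal were higher in every KLA library, and Itgax was lower in every one. Icosl and Icam1 rose by 2.03 and 1.41. Cd44, a hyaluronan receptor, was the other member that fell (-0.96), and it lost its call without 1 library of mouse 1 or 2. Cd86 and Cd80 were not called (-1.25 and -0.69).

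Glycolysis and hypoxia genes rose in 20 of 22 tested (median 1.81). Pfkfb3, which makes the activator of phosphofructokinase, had 8826, 10919 and 12054 in DKO KLA libraries and 1442, 1196 and 1926 in DKO vehicle libraries (2.82 ± 0.13, adjusted p = 5.80e-06). Gapdh had 10067, 11838 and 15306 after KLA and 1622, 2979 and 2523 after vehicle (2.41 ± 0.15, adjusted p = 1.91e-05). Slc2a1, the glucose transporter GLUT1, had 983, 1487 and 1383 after KLA and 219, 420.2 and 196 after vehicle (2.27 ± 0.20, adjusted p = 1.29e-04). Each was higher in every KLA library, with the vehicle values of Slc2a1 highest in mouse 2. The lactate exporter gene Slc16a3 rose by 2.45, lactate dehydrogenase Ldha by 2.03 and the hypoxia factor Hif1a by 1.64. Vegfa and Pfkp were not called (-0.33 and 0.12).

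Many mitochondrial genes encoded in the nucleus rose by small amounts. Of 22 respiratory chain genes, 17 rose and none fell by limma (median 0.52), and none fell by edgeR, by DESeq2 or at an unadjusted p under 0.05. Of 19 TCA cycle genes, limma called 11 higher and none lower (median 0.44), with 2 lower at an unadjusted p under 0.05. Genes lower in that list numbered 1 by edgeR, none by DESeq2, 1 with thinned reads, 1 in a fit of the 6 DKO libraries only and 2 after quantile normalization. Cox5a had 550.4, 624 and 713 in DKO KLA libraries and 183, 259.9 and 303 in DKO vehicle libraries (1.36 ± 0.15, adjusted p = 3.10e-04). Mdh2, the mitochondrial malate dehydrogenase, had 1703, 1439.7 and 1351 after KLA and 549.5, 674 and 582 after vehicle (1.31 ± 0.14, adjusted p = 2.53e-04). The groups of both did not overlap. Sdhb and Sdhd, subunits of succinate dehydrogenase, rose by 1.04 and 1.03. Idh1, which encodes a cytosolic enzyme but is in the TCA cycle list, Idh2 and Fh1 were below 0 and not called (-0.32, -0.17 and -0.44). These counts rest on all 3 mice: the respiratory chain count was 11 without a library of mouse 1 or 2 and 7 without one of mouse 3, and the TCA cycle count was 7 without one of mouse 1 or 3. Of 15 genes of the mitochondrial chromosome, limma called none (median -0.49, and -0.95, 0.03 and -0.33 in mice 1, 2 and 3), with 1 higher and 4 lower at an unadjusted p under 0.05. DESeq2 called 1 higher and 4 lower, edgeR 1 lower and limma after quantile normalization 3 lower. Without either library of mouse 1 the median was -0.19 and 1 gene rose, and without either of mouse 2 1 gene fell.

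Of 12 iron genes tested, 4 rose and 5 fell (median 0.13, 0.03 without either library of mouse 1 and -0.01 after quantile normalization). Slc40a1, the iron exporter ferroportin, had 48.4, 86.9 and 57.5 in DKO KLA libraries and 1093, 893 and 1177 in DKO vehicle libraries (-4.05 ± 0.24, adjusted p = 1.58e-05). Fth1, the heavy chain of the storage protein ferritin, had 99029, 125351 and 159021 after KLA and 24828, 27859 and 38278 after vehicle (2.07 ± 0.16, adjusted p = 6.38e-05). Tfrc, the transferrin receptor, had 1672, 1769 and 1997 after KLA and 3283, 3185 and 2898 after vehicle (-0.79 ± 0.11, adjusted p = 0.00147). Ferroportin and the transferrin receptor were lower, and ferritin higher, in every KLA library. The metal transporters Slc11a1 and Slc11a2 rose by 0.75 and 0.73, and Hmox1, which frees iron from haem, by 1.93. Bach1, a repressor that haem inactivates, and Hfe fell by 0.91 and 0.88.

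General macrophage genes moved in both directions, 6 of 18 higher and 5 lower (median -0.12). The falls numbered 3 without a library of mouse 3, 2 without one of mouse 1 or 2 and 9, against 5 rises, after quantile normalization (median -0.27). Adgre1, which encodes F4/80, had 49439, 47462 and 53508 in DKO KLA libraries and 17889.7, 16786 and 19919.8 in DKO vehicle libraries (1.46 ± 0.11, adjusted p = 4.20e-05). Trem2, a lipid-sensing receptor, had 312, 449 and 335 after KLA and 3463, 3504 and 2638 after vehicle (-3.13 ± 0.18, adjusted p = 1.43e-05). The factor Cebpb had 2751, 2913 and 3369 after KLA and 786, 697 and 811 after vehicle (1.97 ± 0.10, adjusted p = 9.62e-06). Adgre1 and Cebpb were higher, and Trem2 lower, in every KLA library. Cebpa, of the same family as Cebpb, fell by 1.39, and Spi1, which encodes PU.1, was not called (0.18). Of the exon bases of Cebpb, 20.7% lie opposite another gene.

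Of 13 alternative activation genes, 9 fell and 2 rose (median -1.08). Besides Mrc1 and Clec10a, Clec7a, the β-glucan receptor Dectin-1, had 127, 282 and 152 in DKO KLA libraries and 3067, 3139 and 2199 in DKO vehicle libraries (-3.97 ± 0.22, adjusted p = 1.42e-05). Cd163, the haemoglobin scavenger receptor, fell by 1.99, Klf4 by 1.58, and the receptors Tgfbr1 and Tgfbr2 by 1.08 and 0.59. The list's name does not describe all its members' changes, since Arg1 rose, as did Il4ra (0.78), which lost its call without a library of mouse 1 or 3.

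Genes for the clearance of dying cells and complement fell in 10 of 16 tested, with 1 higher (median -0.54). This list leaves out the complement genes Cfb, which rose by 7.27, and C3, which rose among the inflammatory effectors. Its name thus does not describe all complement genes. Gas6, a bridge between dying cells and the receptor Mertk, had 543, 453 and 708 in DKO KLA libraries and 2532, 3142 and 3671 in DKO vehicle libraries (-2.46 ± 0.15, adjusted p = 1.62e-05). Pros1, protein S, another such bridge, had 489, 421 and 512 after KLA and 1126, 1115 and 1058 after vehicle (-1.22 ± 0.12, adjusted p = 1.95e-04). Every KLA value of both was below every vehicle value. Stab1, a scavenger receptor, fell by 1.52 and Mfge8 by 1.39, while Mertk and Axl were not called (0.04 and -0.19). Among 13 scavenger receptors, 4 rose and 5 fell (median -0.38): Marco, Msr1 (1.64) and the mycobacterial glycolipid receptor Clec4e (5.30) rose, and Cd36 fell (-1.42).

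Lysosomal genes fell in 11 of 26 tested and rose in 3 (median -0.33). Atp6v0d2, a proton pump subunit also used by osteoclasts, had 138, 176 and 132 in DKO KLA libraries and 4599, 3959.6 and 2597 in DKO vehicle libraries (-4.61 ± 0.19, adjusted p = 4.76e-06). The protease Ctsb had 45672, 49306 and 46974 after KLA and 90969, 95099 and 82707 after vehicle (-0.92 ± 0.12, adjusted p = 8.49e-04), and Hexa fell by 0.91. Both Atp6v0d2 and Ctsb were lower in every KLA library. The protease gene Ctsz rose by 1.19. The count of falls was 4 without a library of mouse 1 or 2, 6 without one of mouse 3, 7 without the mouse block and 6 without a filter on low values. Of 8 osteoclast markers, 4 fell and 2 rose: the acid phosphatase Acp5 had 714, 879 and 743 after KLA and 52.7, 95.0 and 57.3 after vehicle (3.54 ± 0.17, adjusted p = 8.26e-06), and the fusion receptor Dcstamp had 0.711, 5.55 and 0.612 after KLA and 61.4, 84.9 and 25.2 after vehicle (-4.31 ± 0.79, adjusted p = 0.00489).

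LXR target genes still responded to KLA in cells without LXRs, mostly downward: 8 of 22 tested fell and 2 rose (median -0.29, and -0.17 without either library of mouse 2). Abcg1, which exports cholesterol to HDL (ENSMUSG00000024030, GRCm38 chromosome 17, 31057698 to 31115777, plus strand), had 772, 902 and 637 in DKO KLA libraries and 3007, 3341 and 2489 in DKO vehicle libraries (-1.94 ± 0.13, adjusted p = 2.66e-05). Mylip, a ubiquitin ligase that limits cholesterol uptake, had 219, 227 and 253 after KLA and 758, 716 and 717 after vehicle (-1.64 ± 0.12, adjusted p = 4.20e-05). Apoe had 25583, 21241 and 32684 after KLA and 58921, 49801 and 73981 after vehicle (-1.20 ± 0.15, adjusted p = 6.46e-04). All 3 were lower in every KLA library than in any vehicle library. Cd5l, a secreted survival factor, fell by 3.58, lipoprotein lipase Lpl by 2.34, Arl4c by 2.05, Eepd1 by 1.29 and the phospholipid transfer protein Pltp by 0.75. Abca1, the exporter that loads apolipoprotein A-I, had 12381, 18449.6 and 13721 after KLA and 14347, 16732 and 14223 after vehicle (-0.04 ± 0.10, adjusted p = 0.800), with overlapping groups, and Srebf1 had a log2 fold change of 0.06 ± 0.10, adjusted p = 0.728. Of the 2 that rose, 1 was Nr1h3 itself and the other Smpdl3a (0.56), which lost its call without a library of mouse 3.

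Lipid storage and PPAR genes fell in 6 of 19 tested and rose in 1 (median -0.14, -0.22 without either library of mouse 3 and -0.23 after quantile normalization). Pparg, the nuclear receptor of fat storage, had 24.2, 17.6 and 14.7 in DKO KLA libraries and 466, 363 and 348 in DKO vehicle libraries (-4.33 ± 0.19, adjusted p = 5.80e-06). Angptl4, its target and an inhibitor of lipoprotein lipase, had 1.42, 1.85 and 1.84 after KLA and 69.7, 63.5 and 85.7 after vehicle (-4.77 ± 0.36, adjusted p = 4.68e-05). Lipa, the lysosomal lipase that frees cholesterol, had 3813, 4274 and 4102 after KLA and 13763, 14845 and 11674 after vehicle (-1.72 ± 0.10, adjusted p = 1.84e-05). The groups were apart in each, with Angptl4 close to no reads after KLA. The droplet coat gene Plin2 fell by 1.53 and Cd36, which takes up oxidized LDL and fatty acids, by 1.42. Dgat2, which makes triglycerides, was the member that rose (2.10), and without the KLA library of mouse 1 its adjusted p was 0.0507. Among 16 fatty acid synthesis genes, 2 rose and 1 fell, no larger a share than the 14.6% and 12.0% over all genes, and DESeq2 called 2 lower. Their median of 0.02 was -0.01 without mouse 1 and -0.09 without mouse 3. Acsl1, which activates fatty acids, had 14555, 21233 and 12849 after KLA and 492, 730.0 and 802 after vehicle (4.58 ± 0.23, adjusted p = 8.81e-06), and malic enzyme Me1 rose by 1.81. Acsl3 fell (-1.12) and lost its call without a library of mouse 1.

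Cell cycle genes were lower: 18 of 29 tested fell and 2 rose (median -1.15). Ccna2, cyclin A2, had 66.1, 113 and 52.0 in DKO KLA libraries and 748, 936 and 228 in DKO vehicle libraries (-2.88 ± 0.26, adjusted p = 1.34e-04). Ccnd1, cyclin D1, had 67.6, 63.8 and 69.8 after KLA and 553, 516 and 225 after vehicle (-2.56 ± 0.28, adjusted p = 3.41e-04; 23.4% of its exon bases lie opposite another gene). The mitotic kinase Plk1 had 18.5, 39.8 and 19.0 after KLA and 218, 345 and 79.3 after vehicle (-2.86 ± 0.39, adjusted p = 0.00110). In all of these the KLA value was the lower in every mouse, and the vehicle value of mouse 3 was the lowest of the vehicle libraries. Top2a fell by 2.21 and Rrm2 by 2.01; Mki67, with 2903, 3234 and 2614 after KLA and 8393, 9126 and 3535 after vehicle, was not called (-1.15 ± 0.51, adjusted p = 0.136). The members that rose, E2f1 (0.53) and the inhibitor Cdkn1a (0.67), both lost the call without a library of mouse 1. Only 1 member was called higher without a library of mouse 2 or 3 or without the mouse block. The list median was -1.53, -1.46 and -0.56 in mice 1, 2 and 3. The number that fell was 20 without a library of mouse 3, 10 without one of mouse 1 or 2, and 11 in the fit without the mouse block.

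Markers of other cells in the cultures were followed as well. Of 12 neutrophil and precursor markers, 7 fell and none rose by limma, edgeR or DESeq2 (median -1.27), nor did any at an unadjusted p under 0.05. Their sum was 3342, 7593 and 5349 in DKO KLA libraries and 6492, 9456 and 7559.8 in DKO vehicle libraries. Mpo, myeloperoxidase of granulocyte precursors, had 20.6, 31.4 and 25.7 after KLA and 386, 598 and 386 after vehicle (-4.08 ± 0.18, adjusted p = 5.80e-06), and Elane, neutrophil elastase, had 2.84, 9.25 and 1.22 after KLA and 89.0, 116 and 88.8 after vehicle (-4.46 ± 0.44, adjusted p = 2.10e-04). S100a8 and S100a9 were not called (-0.07 and -0.14). The 7 falls became 3 without a library of mouse 1 or 2 and 4 without one of mouse 3. Among 12 stromal markers limma called 1 lower (Postn, -1.23), and the count varied in both directions. It was 3 lower with a pseudocount of 8, 4 lower and 1 higher by edgeR, 2 lower by DESeq2 and with thinned reads, and 5 lower and 2 higher in a fit of the 6 DKO libraries only. It was 1 lower and 1 higher after quantile normalization or without the KLA library of mouse 2, and none lower but 1 higher without the vehicle library of mouse 2. No stromal marker was called without either library of mouse 1 or without the mouse block. Among 8 dendritic markers 1 rose (Bst2, which is also interferon-stimulated), among 3 erythroid or megakaryocyte markers 1 fell (Gp1ba, -0.97), and of 2 mast cell or eosinophil markers none was called by limma or DESeq2, 1 was lower by edgeR and 2 were lower at an unadjusted p under 0.05. Postn and Gp1ba lost the call without a library of mouse 1 or 3 and in the fit without the mouse block, and Gp1ba also without one of mouse 2 and with DESeq2. What part these other cells had in the genes named above was not tested.

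The KLA response was compared with that of LXR-positive macrophages from the same fit. LXR-positive cells had 4789 genes called (30.0%), 2635 higher and 2154 lower. Of the genes that rose in DKO, 1782 also rose in LXR-positive cells, 76.4% of the DKO and 67.6% of the LXR-positive list, and of those that fell 1357 did, 70.8% and 63.0%; 11 were called in opposite directions. Over all genes tested, 16.5% rose and 13.5% fell in LXR-positive cells. The 2 genotypes share no library in this overlap, but their calls share 1 filter and 1 estimate of the spread. The difference between responses was called for 20 genes (0.125%), all lower in DKO, and 1214 had an unadjusted p under 0.05. Among 15957 genes many without a difference would pass that unadjusted threshold, so 1214 is not a count of differing genes. The authors' deposited table called 54 of 18223 genes for the same difference, 46 negative and 8 positive as signed there, and 19 of the 20 were among them. The 20 depend on single libraries: none was called without either library of DKO mouse 1 or 2, 12 without one of DKO mouse 3, 4 or 5 without one of LXR-positive mouse 1 or 3, and 33 or 39 without the KLA or the vehicle library of LXR-positive mouse 2. DESeq2 on the recovered reads called 67 (20 higher, 47 lower).

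Of those 20 genes, 14 belong to cholesterol synthesis and uptake. In that list 1 of 24 rose and 6 fell in DKO (median -0.15; -0.09 without either library of mouse 2, -0.28 without either of mouse 3), while 23 of 24 rose in LXR-positive cells (median 1.51). Fdps, which makes farnesyl diphosphate, had 256, 276 and 329 in DKO KLA and 309, 319.9 and 311 in DKO vehicle libraries, and 1014, 624 and 1151 in LXR-positive KLA and 208, 185 and 197 in LXR-positive vehicle libraries. The difference of its log2 fold changes, DKO minus LXR-positive, was -2.32 ± 0.23, adjusted p = 0.0119. Sqle, squalene epoxidase, had 257, 244 and 316 in DKO KLA and 339.6, 411 and 352 in DKO vehicle libraries, and 967, 449 and 923 in LXR-positive KLA and 236, 177 and 296 in LXR-positive vehicle libraries (-2.11 ± 0.23, adjusted p = 0.0185). Both were higher after KLA in every LXR-positive mouse, and neither passed the test of the response in DKO. Cyp51, a sterol demethylase, had log2 fold changes of -1.28 in DKO and 1.52 in LXR-positive cells (-2.80 ± 0.33, adjusted p = 0.0268). Mvd was the member that rose in DKO (1.18 ± 0.15, adjusted p = 6.88e-04). The falls in DKO became 2 without a library of mouse 1 or 2, 5 without one of mouse 3, 3 without the mouse block, 8 in a fit of the 6 DKO libraries only and 10 after quantile normalization (median -0.24). Idi1, Insig1, Msmo1 and Srebf2 lost the call in at least 1 of the settings that lowered the count, and Cyp51 remained called in each of those.

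Fatty acid genes and Abcg1 make up the other named differences. Scd2, a stearoyl-CoA desaturase, had 1793, 3331 and 2989 in DKO KLA and 1618, 2646 and 1344 in DKO vehicle libraries, and 8403, 4657 and 10062 in LXR-positive KLA and 238, 245 and 232 in LXR-positive vehicle libraries (-4.39 ± 0.35, adjusted p = 0.00606). Fads2, a desaturase of polyunsaturated fatty acids, had 22.8, 37.9 and 27.5 in DKO KLA and 64.3, 105 and 30.2 in DKO vehicle libraries, and 292, 86.9 and 431 in LXR-positive KLA and 14.3, 14.0 and 14.7 in LXR-positive vehicle libraries (-4.88 ± 0.62, adjusted p = 0.0343). The DKO vehicle libraries lay above the LXR-positive vehicle libraries in both genes. The mean vehicle level was also higher in DKO for every other gene called for the difference, pseudogenes left out. For Cyp51 it was 1305 in DKO against 559 in LXR-positive cells, and for Abcg1 2945 against 1929. The part of these vehicle levels in the differences was not tested. For Abcg1 it was the DKO cells that responded: LXR-positive libraries had 1584, 2525 and 1645 after KLA and 1959, 2005 and 1823 after vehicle (-0.04; difference -1.90 ± 0.18, adjusted p = 0.0119). Srebf1, which encodes SREBP-1, had log2 fold changes of 0.06 in DKO and 1.50 in LXR-positive cells (-1.44 ± 0.14, adjusted p = 0.0119). The remaining 2 called entries are processed pseudogenes, Mrps36-ps1 and Gm10080, each with a group at 0 in all libraries, and they were chosen for mention after their values were seen.

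**Figure D5:**
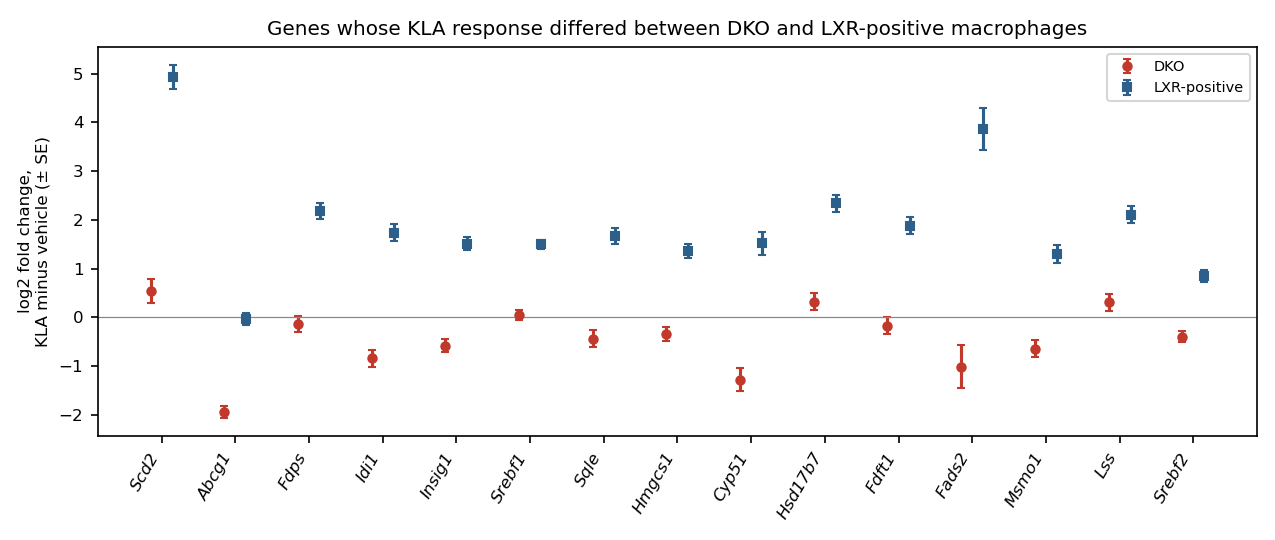
Log2 fold change, KLA minus vehicle, ± SE, in DKO (red circles) and LXR-positive (blue squares) macrophages for 15 genes whose response differed between genotypes, pseudogenes left out. All DKO points lie below their LXR-positive points; Scd2 is at 0.54 in DKO and 4.94 in LXR-positive cells.

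By limma, no inflammatory or interferon list held a gene called for the difference in response, although the counts were unequal. Interferon-inducible GTPases rose in 15 of 16 in DKO and 8 of 16 in LXR-positive cells, with medians of 2.40 and 1.15, and interferon-stimulated genes in 26 and 21 of 29, with medians of 1.58 and 1.09. Cell cycle genes fell in 18 of 29 in DKO and 7 in LXR-positive cells, with medians of -1.15 and -0.07. By mouse, the GTPase medians were 2.90, 2.90 and 1.37 in DKO and 0.55, 2.04 and 0.70 in LXR-positive mice 1, 2 and 3, so the ranges overlap. The cell cycle medians were -1.53, -1.46 and -0.56 in DKO and 0.15, -1.19 and -0.14 in LXR-positive mice, so these ranges overlap too. Summed cell cycle levels after vehicle were 25505, 27218 and 11859 in DKO and 8573, 22054 and 7313 in LXR-positive mice. The part of these vehicle levels in the unequal counts was not tested. Cd38, whose log2 fold changes were 5.61 in DKO and 7.20 in LXR-positive cells, had a difference of -1.59 ± 0.29, adjusted p = 0.210 by limma. The authors' deposited interaction test did call Cd38 (-1.70, adjusted p = 0.00459). That test also called Slpi, another inflammatory effector (-3.68, adjusted p = 0.0284). Inflammatory effectors rose in 19 of 21 in DKO and 20 of 21 in LXR-positive cells. A difference that was not called may still exist, since 3 mice a genotype and the shallower LXR-positive libraries limit what can be seen.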

How the data were processed

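RNA of 12 cultures, KLA and vehicle from 3 DKO and 3 LXR-positive mice, was read as 50-base single ends from 500 ng of input with a kit that keeps strand, per the labels' protocols. The submitters' processing notes name kallisto, DESeq2 and GRCm38; no version, annotation release or strand setting is recorded there. The deposited signal values are gene counts that the authors divided by a size factor of each library, and whole reads came out for 100% of them (tolerance 0.01 of a read). The authors also deposited, per the file headers, a log2 fold change and an adjusted p-value for the interaction of KLA and genotype.

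From these, log2(normalized count + 1) of 15957 of 47372 genes (at least 10 normalized counts in at least 3 of 12 libraries) was fitted with limma 3.58.1 (trend, R 4.3.3), with mouse as a block, on all 12 libraries, which share 1 estimate of the spread. The p-values were adjusted over all genes tested by the method of Benjamini and Hochberg, and genes with an adjusted p under 0.05 count as called. Fold changes are on the log2(value + 1) scale, which understates those of low genes; errors are SE. The mouse number pairs libraries, as the series' design states: deviations of libraries with the same number correlated at 0.128 to 0.399. Count tests were run on the recovered reads as alternatives: edgeR 4.0.16 (quasi-likelihood) called 4463 genes and DESeq2 1.42.0 called 3930. The tests were tried first on simulated data without genotype or mouse effects, so that trial does not cover such effects.

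Genes were named by rank (the 12 largest rises and falls among called genes with the same sign in 3 mice, a mean of at least 200 normalized counts in the higher group and no model-type symbol), by list, or by the difference between genotypes. The comparison, its members and the lists were chosen with earlier results of these data known. Coordinates and biotypes are from the deposited table, opposite-strand overlap from the GENCODE M21 annotation, and promoters from RefSeq (GRCm38.p6). Some members and called genes are counted but not reported here by name. Counting intervals cover counting error only.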

Additional observations from a re-analysis of the deposited data

Results flagged for a closer look

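A test of the difference itself separated the KLA responses of DKO and LXR-positive macrophages for the 15 genes given here, all with the smaller or more negative log2 fold change in DKO. All 15 also had a higher mean vehicle level in DKO than in LXR-positive cells. For enzymes and regulators of cholesterol synthesis and uptake, the difference in log2 fold change, DKO minus LXR-positive, was -2.80 for Cyp51, -2.58 for Idi1, -2.32 for Fdps, -2.11 for Sqle, -2.09 for Insig1, -2.05 for Fdft1 and -2.01 for Hsd17b7. It was -1.94 for Msmo1, -1.80 for Lss, -1.71 for Hmgcs1 and -1.24 for Srebf2. Outside that list it was -4.88 for Fads2, -4.39 for Scd2, -1.90 for Abcg1 and -1.44 for Srebf1. The summed level of the cholesterol list was lower in the KLA library of LXR-positive mouse 2 (16727 normalized counts) than in those of mice 1 and 3 (28839 and 28974). Without that library 33 genes were called for the difference, against 20 in the main fit, and 39 without the vehicle library of that mouse. Leaving out a library of any other mouse gave fewer. None was called without either library of DKO mouse 1 or 2. There were 12 without one of DKO mouse 3, and 4 or 5 without one of LXR-positive mouse 1 or 3.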

How the results depend on the processing

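The number of genes called for the KLA response in DKO was within 1.5 times of 4249 under each alternative that left out no DKO library: 3662 with no filter on low values to 4525 with quantile normalization over all 12 libraries, and 5119 in a fit of the 6 DKO libraries only. The blocked main fit pairs the libraries of 1 mouse; without the replicate block, 4016 genes were called (2238 higher, 1778 lower). Leaving out 1 DKO library gave 2172 to 2641 in all, 1220 to 1439 higher and 936 to 1270 lower; the missing library also removes its mouse from the contrast, so fewer samples were compared. The difference between genotypes was called for 20 genes, and for 11 without the replicate block (all lower) and 67 with DESeq2 on recovered reads (20 higher, 47 lower); the cause was not tested. Leaving out 1 of the 12 libraries gave 0 to 39 such genes, 0 to 5 higher and 0 to 34 lower. Quantile normalization called 2218 higher and 2307 lower, which turned the balance of the 2331 higher and 1918 lower. No call of a named gene changed sign under the alternatives run. Counted over named genes and alternatives, called genes kept their call in 2721 cases and lost it in 86 with all 12 libraries, and genes not called gained a call in 94. With 1 DKO library left out, 1697 calls were kept, 409 lost and 22 gained. With the DKO libraries only, 350 were kept, 1 lost and 44 gained. The median of 5 of 37 lists changed sign under at least 1 alternative: chemokine receptors (-0.35 to 0.18), fatty acid synthesis (-0.09 to 0.05), iron (-0.01 to 0.19), dendritic markers (-0.07 to 0.16) and erythroid or megakaryocyte markers (-0.08 to 0.51). Each mean rests on 3 mice, and the LXR-positive KLA libraries were the shallowest.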

Other observations

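Genes that shape the matrix around macrophages were split in DKO cells, with 6 of 15 tested rising and 4 falling after KLA (median log2 fold change 0.65). Without either library of mouse 3 the median was 0.19, with 5 rising and 4 falling, and without the KLA library of mouse 1 4 rose and 4 fell. Mmp14, a membrane-anchored protease, had 11623, 9867 and 11455 normalized counts in DKO KLA libraries and 878, 1037 and 1367 in DKO vehicle libraries (3.35 ± 0.21, adjusted p = 2.25e-05). Mmp12, the macrophage elastase, had 771, 2924 and 717 after KLA and 10081, 18149 and 4705 after vehicle (-3.02 ± 0.34, adjusted p = 4.34e-04). The urokinase gene Plau had 125, 110.0 and 66.7 after KLA and 1573, 2296 and 556 after vehicle (-3.68 ± 0.37, adjusted p = 2.13e-04), and its inhibitor Serpinb2 had 145, 374 and 159 after KLA and 15.0, 42.7 and 5.41 after vehicle (3.64 ± 0.30, adjusted p = 8.40e-05). Urokinase and its receptor Plaur were thus both lower, and the inhibitor higher, in every KLA library. Mmp9 and Mmp2, gelatinases, rose by 1.81 and 2.12, and the inhibitor Timp2 fell by 1.26.

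Of 16 genes of the unfolded protein response and ATF4, 8 rose, 1 fell and 7 were not called (median 0.39). Hspa5, the main chaperone BiP, had 20881, 18612 and 22910.2 in DKO KLA libraries and 8151, 9878 and 12362 in DKO vehicle libraries (1.05 ± 0.13, adjusted p = 6.30e-04). Calr rose by 1.24, Sdf2l1 by 1.46 and the factor Xbp1 by 0.69, while Ddit3, Trib3 and Asns were not called (0.12, -0.24 and -0.26). Atf6 was the member that fell (-0.40), and it lost the call when any 1 DKO library was left out. Among 18 NRF2 target genes, 6 rose and none fell by limma, edgeR or DESeq2 (median 0.33), with 1 lower at an unadjusted p under 0.05, in a fit of the 6 DKO libraries only and after quantile normalization (median 0.18). Hmox1, thioredoxin Txn1 (1.83) and glutathione reductase Gsr (1.15) rose, while Nqo1, Gclc and Srxn1 were not called (-0.02, -0.01 and 0.00).

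By annotated type, 16.4% of 12983 protein-coding genes tested rose and 13.2% fell. Of 692 lincRNAs, 36 rose (5.20%) and 56 fell (8.09%), and of 559 antisense genes 22 (3.94%) and 36 (6.44%). Of 754 processed pseudogenes, 84 rose (11.1%) and 29 fell (3.85%). Each of these shares is below the 14.6% higher or 12.0% lower over all genes. Antisense genes and pseudogenes may share reads with other genes, and whether counting used strand is not recorded.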
